A study of Mus musculus with 2 samples.

Results

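Runx2, Sp7, Dlx5, Dlx3, Msx1, Msx2, Twist1, Prrx1 and Atf4 are transcription factors of bone formation and of the growing skull. They were taken by gene symbol, 9 of the 32285 genes in the count matrices, with no cutoff on a measured value. Earlier results of these data were known when they were chosen. The study itself used Runx2, Msx1, Twist1 and Prrx1 as markers of mesenchymal cells. The cells came from the calvaria of C57BL/6 mice aged 2 months with a circular frontal bone defect of 1.8 mm, harvested 7 d after injury, and no altered allele is named for either group. Mice of the GA group received gambogic amide (GA), a small molecule agonist of the nerve growth factor receptor TrkA, intraperitoneally at 1.2 mg/kg in 10% DMSO. Mice of the control group received 100 µL of 10% DMSO by the same route. Injections began 24 h before injury and were given daily for 1 week in both groups. The study's methods give 5 mice pooled per group, so each group was 1 single-cell RNA-seq library with no replicate. No difference between the groups was therefore tested, and treatment and library cannot be told apart. All intervals below are exact 95% intervals for counting error only: Poisson for levels, binomial for shares of cells and conditional binomial for ratios.

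These factors act at different steps of the same lineage. Runx2 is required for cells to become osteoblasts, and Sp7 (osterix) acts downstream of it to complete that step. Dlx5 and Dlx3 are distal-less homeobox factors that promote osteoblast differentiation, and Msx1 and Msx2 are muscle segment homeobox factors of the cranial mesenchyme and sutures that can oppose Dlx factors on shared sites. Twist1 is a basic helix-loop-helix factor that holds Runx2 in check and whose loss closes the coronal suture early. Prrx1 is a paired-related homeobox factor of limb and skull mesenchyme, kept in skeletal stem and progenitor cells of the adult calvaria. Atf4 is the effector of the integrated stress response, translated when eIF2α is phosphorylated, and drives amino acid import and late osteoblast genes.

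On the GRCm38 (mm10) annotation, Runx2 spans chr17:44495987-44814797 on the minus strand, by far the longest of the 9 loci, while Twist1 (chr12:33957671-33959829) and Atf4 (chr15:80255184-80257541) are short genes on the plus strand. Runx2os1, Runx2os2, Runx2os3 and Supt3 overlap Runx2 on the opposite strand. Sp7 lies at chr15:102356606-102367182 (minus), Dlx5 at chr6:6877805-6882085 (minus), Dlx3 at chr11:95120119-95125296 (plus), Msx1 at chr5:37820485-37824583 (minus), Msx2 at chr13:53466884-53473074 (minus) and Prrx1 at chr1:163245119-163313710 (minus). RefSeq promoter windows (GRCm38.p6, 250 bases before to 50 after the start) were at hand for 6 of the 9 genes: Runx2, Msx1, Msx2, Twist1, Prrx1 and Atf4. They were searched on both strands for AACCACA, the site read by Runx factors, and for TAATTA, a homeodomain core that is its own reverse complement. These letters were chosen after the windows had been seen. The Runx2 window held AACCACA 3 times, at bases 170 to 176, 273 to 279 and 281 to 287 of the window. Of all 32851 windows, 5.27% held that motif and 3 windows held it 3 or more times. The Msx2 and Prrx1 windows each held TAATTA once, which 5.29% of all windows held at least 1 time, and no window of Msx1, Twist1 or Atf4 held either string. The 3 windows with a match are shown with the motif in capitals, Runx2 from chr17:44814578-44814877, Msx2 from chr13:53472731-53473030 and Prrx1 from chr1:163313601-163313900, all on the minus strand. A match is a run of letters and not a measured binding site.
Runx2: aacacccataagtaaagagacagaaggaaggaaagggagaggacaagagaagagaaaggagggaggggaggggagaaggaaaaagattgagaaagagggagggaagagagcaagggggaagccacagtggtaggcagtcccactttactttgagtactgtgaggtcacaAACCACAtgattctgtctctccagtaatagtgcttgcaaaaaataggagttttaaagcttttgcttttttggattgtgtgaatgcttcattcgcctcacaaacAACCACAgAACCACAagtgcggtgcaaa
Msx2: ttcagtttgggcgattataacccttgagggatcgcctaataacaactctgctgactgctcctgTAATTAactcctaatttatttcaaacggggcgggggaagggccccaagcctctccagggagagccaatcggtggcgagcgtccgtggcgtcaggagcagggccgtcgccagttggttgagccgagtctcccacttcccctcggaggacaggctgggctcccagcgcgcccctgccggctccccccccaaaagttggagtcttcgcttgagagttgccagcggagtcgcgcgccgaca
Prrx1: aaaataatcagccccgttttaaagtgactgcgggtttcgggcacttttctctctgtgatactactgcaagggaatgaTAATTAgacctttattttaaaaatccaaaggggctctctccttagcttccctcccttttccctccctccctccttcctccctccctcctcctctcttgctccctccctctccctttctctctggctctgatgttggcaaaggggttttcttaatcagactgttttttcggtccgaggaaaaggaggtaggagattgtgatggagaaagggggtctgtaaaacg

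After filters on depth, genes, mitochondrial share and doublets, 8380 GA and 7553 control cells were kept, with medians of 10968.5 and 16299 UMIs per cell. The libraries shared 18 of these cell barcodes. The mesenchymal lineage held 865 GA and 1727 control cells, 10.3% and 22.9% of the kept cells, with 46991530 and 96440305 UMIs. It was clustered again without the 9 factors into 12 clusters, numbered 0 to 11 by size, of which 7 met the marker rule for a name. The Stem 1-like group (cluster 7) was led by Ube2c and Top2a, genes of dividing cells. Leading genes of the Stem 2-like group (clusters 0 and 4) were Pi16 and Cxcl5, those of the multilineage progenitor-like group (clusters 1 and 5) Scx and Matn4, those of the fibroblastic progenitor-like group (cluster 3) Eln and Palmd, and those of the osteoblast-like group (cluster 8) Bglap and Ifitm5. Clusters 2, 6, 9, 10 and 11 stayed unnamed. They were led by Adamts19 and Dlk1, by Cdkn2a and Wnt7b, by Ptgds and Slc47a1, by Hotairm1 and Rgs4, and by the neutrophil genes S100a8 and Lcn2, respectively. The summed level of 10 neutrophil markers in the lineage was 1958 CPM (the UMIs of a gene or list scaled to a fixed total over the same cells) in GA and 263 in control, with all 10 of 10 higher in GA. In cluster 9, with 19 GA and 77 control cells, the summed level of 6 genes of the arachnoid and dura was 1108 in GA and 1439 in control, against 278 and 219 in cluster 3. In cluster 11, with 18 GA and 3 control cells, the neutrophil sum was 43846 and 52655. Without that cluster the lineage ratio of each of the 9 factors stayed inside its counting interval.

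The 9 factors differed in where in the lineage they stood. Sp7 and Dlx3 had by far their highest levels in osteoblast-like cells, but were not confined to them. In GA these cells held 405 of the lineage's 493 Sp7 UMIs and 77 of its 83 Dlx3 UMIs. In control they held 381 of 587 and 71 of 114. Dlx5 was also present in multilineage progenitor-like cells, at a lower level. Of the 5 named groups, Msx1 was highest in fibroblastic progenitor-like cells, Prrx1 was lowest in osteoblast-like cells, and Runx2 ran from low in Stem 2-like cells to high in osteoblast-like cells, each in both libraries. For Msx2 and Atf4 the group with the highest level differed between the libraries. In GA, the interval of osteoblast-like cells overlapped that of multilineage progenitor-like cells for Msx2 and that of Stem 2-like cells for Atf4. Levels are in CPM of the summed cells of a group.

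For Runx2, the level in osteoblast-like cells was 686 CPM in GA (interval 657 to 716) and 719 in control (686 to 753). Multilineage progenitor-like cells followed with 454 and 550. Fibroblastic progenitor-like cells had 388 and 382. Stem 1-like cells had 235 and 343, and Stem 2-like cells had 72.8 and 103, the lowest of the 5 named groups in both libraries. Runx2 was thus present throughout the lineage and not a mark of osteoblast-like cells alone. With both libraries summed, osteoblast-like cells held 8.98% of the lineage's Runx2 UMIs and cluster 1 of the multilineage progenitor-like cells held 24.9%. At the top, cluster 8 stood at 701 (679 to 723) and cluster 1 at 613 (601 to 624), with counting intervals apart. The 5 richest osteoblast-like cells held 494 of 2137 Runx2 UMIs in GA and 574 of 1804 in control. At 10000 UMIs per cell, 94.4% (86.4 to 98.5) of GA cells had a Runx2 UMI in cluster 8 and 90.5% (82.1 to 95.8) in cluster 1. In control these shares were 98.2% (90.6 to 100.0) and 92.5% (88.7 to 95.4), and the intervals overlapped in both libraries. At the bottom, cluster 0 of the Stem 2-like cells stood at 53.8 (50.5 to 57.3) and cluster 4 of the same group at 139 (133 to 145).

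Sp7 levels differed widely between the groups, while over bins of bone gene content, given below, they rose by steps. In osteoblast-like cells it stood at 130 CPM in GA (118 to 143) and 152 in control (137 to 168). Multilineage progenitor-like cells had 6.60 and 6.48, and Stem 2-like cells had 0 UMIs in GA, which allows a level of up to 0.320, and 2 UMIs in control. Cluster 8 alone held 72.8% of the lineage's Sp7 UMIs, and cluster 1 held 16.5% at a level of 9.98 (8.57 to 11.6). With both libraries summed, as in these shares, Sp7 was under 5 CPM in every other cluster, while in GA alone cluster 9 had 9.24 on 5 UMIs.

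Dlx3 was highest in the same cells. Its level in osteoblast-like cells was 24.7 CPM in GA (19.5 to 30.9) and 28.3 in control (22.1 to 35.7), from 77 and 71 UMIs. With both libraries summed, cluster 8 held 75.1% of the lineage's Dlx3 UMIs, and the next cluster in order stood at 0.729. Dlx5 was broader than Dlx3. It stood at 18.9 (14.4 to 24.4) in GA and 29.5 (23.2 to 37.0) in control in osteoblast-like cells, and at 6.73 and 7.87 in multilineage progenitor-like cells. Cluster 1 held 48.3% of the Dlx5 UMIs of the lineage and cluster 8 held 33.1%.

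Msx1 had a different centre. Fibroblastic progenitor-like cells stood at 93.5 CPM in GA (76.1 to 114) and 111 in control (105 to 117), and multilineage progenitor-like cells at 50.03 and 53.01. Osteoblast-like cells had 6.42 and 7.18, on 20 and 18 UMIs, so the cells richest in Sp7 and Dlx3 were among those lowest in Msx1. By cluster, Msx1 was highest in the unnamed cluster 9, at 181 (147 to 221) in GA and 143 (129 to 159) in control. Msx2, its paralogue, was scarce, and its pattern differed between the libraries. In control it was highest in cluster 1 of the multilineage progenitor-like cells, at 11.1 on 152 UMIs, and in GA it was highest in cluster 9, at 20.3 (10.1 to 36.4) on 11 UMIs, with cluster 1 at 3.36 on 14 UMIs. Stem 2-like cells had 1 Msx2 UMI in each library.

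Twist1 was present in every group and highest in osteoblast-like cells, at 282 CPM in GA (264 to 302) and 334 in control (311 to 357). The remaining groups lay between 97.6 and 160.1. The 5 richest of the 59 control osteoblast-like cells held 258 of their 837 Twist1 UMIs. At 10000 UMIs per cell, 81.9% of GA and 71.9% of control osteoblast-like cells had a Twist1 UMI. Fibroblastic progenitor-like cells had 74.1% and 69.3%, with overlapping intervals. The order below osteoblast-like cells differed between the libraries: cluster 0 stood above cluster 1 in GA, at 162 (153 to 172) against 139 (128 to 150.5), and below it in control, at 120.1 (114 to 127) against 140.2 (134 to 147). Prrx1 ran the other way. It was lowest in osteoblast-like cells, at 179 (165 to 195) in GA and 152 (137 to 168) in control, and the remaining groups lay between 359 and 754. Atf4 had the narrowest range over the groups of the 9 factors, from 165 to 250.3. By cluster and library it ran from 96.1 (71.7 to 126) in cluster 9 of GA to 283 (265 to 301) in cluster 5 of GA.

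**Figure D1:**
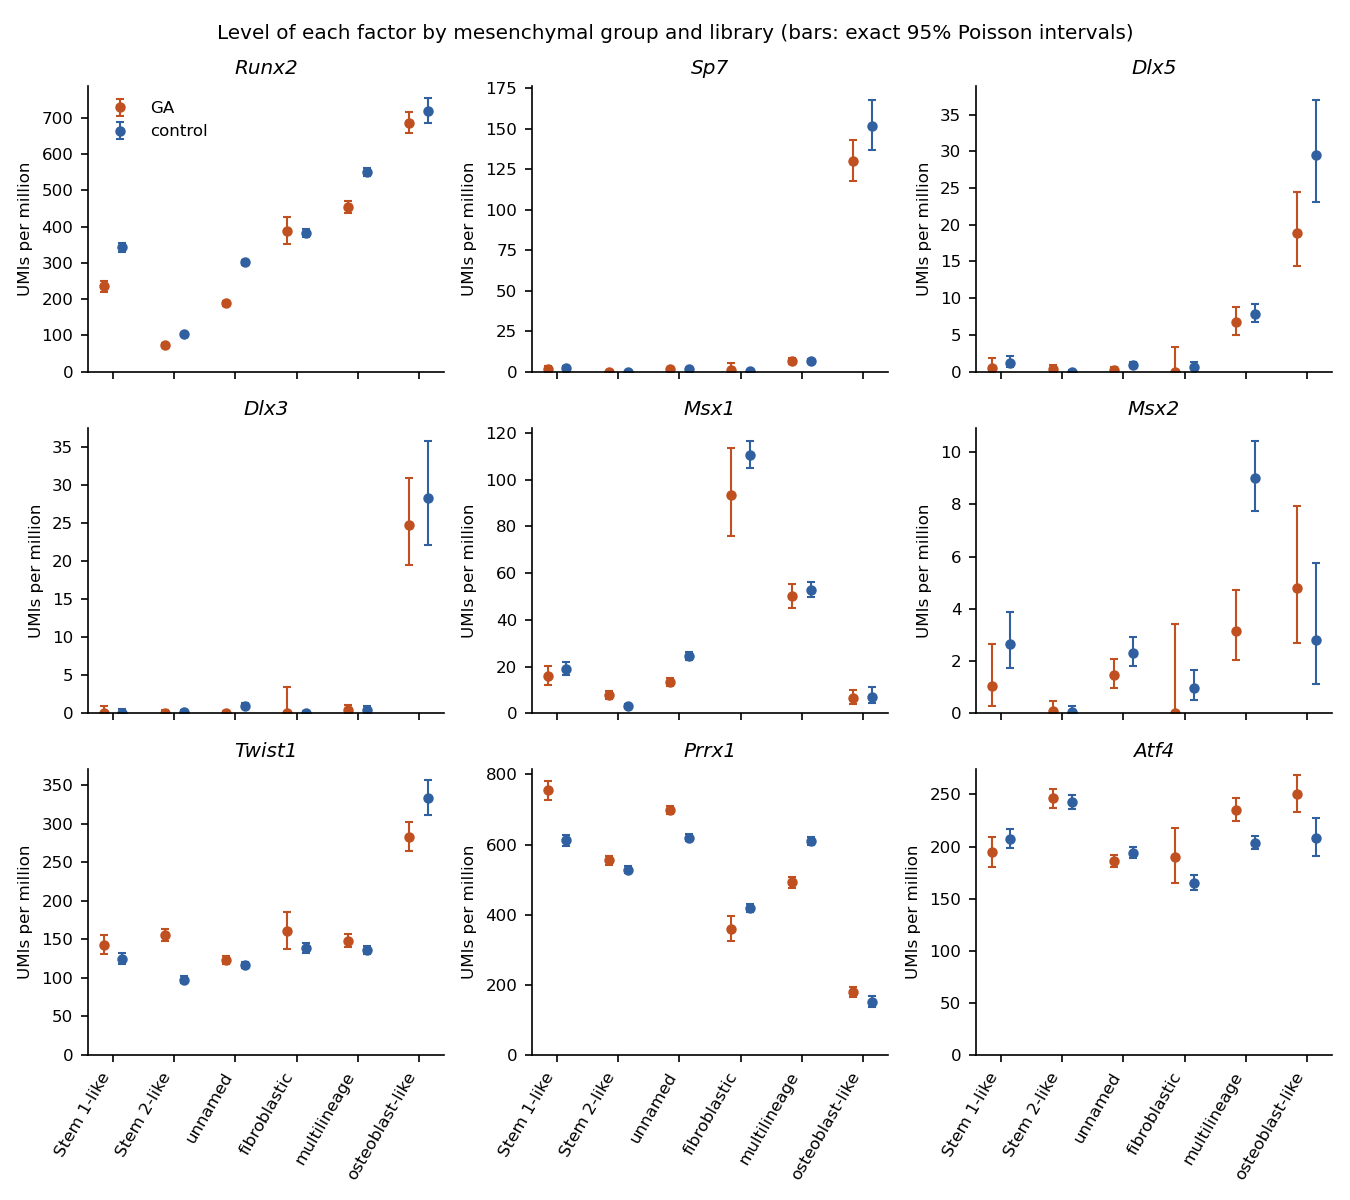
Level of each of the 9 factors (CPM, axis from 0, scale set per gene) in the 6 groups of the mesenchymal lineage, GA and control shown as separate points with exact 95% Poisson intervals. Sp7 and Dlx3 stand above 20 in osteoblast-like cells alone, Msx1 is highest in fibroblastic progenitor-like cells at 93.5 and 111, and Prrx1 is lowest in osteoblast-like cells at 179 and 152.

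The pairs of factors followed the same lines over the 12 clusters, with both libraries summed and levels taken as log2 of CPM plus 1. Sp7 and Dlx5 had Pearson r of 0.92, Sp7 and Dlx3 0.88, and Runx2 and Dlx5 0.77. Msx2 had r of 0.79 with Dlx5 and 0.78 with Runx2. Prrx1 ran against Twist1 at r of -0.84, against Sp7 at -0.76 and against Dlx3 at -0.76. Msx1 had r of 0.51 with Runx2 and -0.24 with Dlx3, and Msx1 and Msx2 had 0.57. These are descriptions over 12 clusters whose cells share 2 libraries, and carry no test. Cluster 8 lay far from the median cluster, at 140 CPM against 0.867 for Sp7 and 167 against 532 for Prrx1. Its weight in these r values was not tested.

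Whether GA treatment went with other levels of these factors was first read over the whole lineage. A gene was counted as beyond the fold where its log2 ratio of levels, GA over control, passed 0.5 in size and it had at least 200 UMIs over both libraries. Of the 9 factors, 8 had enough UMIs, 1 was beyond the fold upwards and 2 downwards, beside 12.3% of all 12805 genes with enough UMIs. The median log2 ratio was -0.06 over the 8 factors and -0.02 over all genes.

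Sp7 was the factor that stood higher in GA, at 10.5 CPM against 6.09 in control, a log2 ratio of 0.79 (0.61 to 0.96). Msx1 stood at 19.5 against 36.7, a log2 ratio of -0.91 (-1.02 to -0.81). Msx2 stood at 1.55 against 3.08, a log2 ratio of -0.99 (-1.38 to -0.61). Runx2 was lower in GA but within the fold, at 244 against 336 and -0.46 (-0.49 to -0.43). Twist1 had 0.23 (0.19 to 0.28), Prrx1 0.09 (0.07 to 0.11), Atf4 0.06 (0.03 to 0.10) and Dlx5 -0.18 (-0.50 to 0.13), the last with an interval that held 0. Dlx3, with 83 and 114 UMIs, was under the UMI minimum, and its ratio was 0.58 (0.15 to 1.00).

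The group shares behind these sums differed between the libraries. Osteoblast-like cells were 8.79% of the GA lineage (6.98 to 10.9) and 3.42% of the control lineage (2.61 to 4.38), and fibroblastic progenitor-like cells were 3.12% (2.07 to 4.51) and 16.4% (14.7 to 18.3). When both libraries were weighted to the same cluster shares, 0 of the 8 factors stayed beyond the fold. The Sp7 ratio turned to -0.10, Msx1 came to -0.05, Msx2 to -0.49 and Runx2 to -0.25. Leaving out the osteoblast-like cells gave a Sp7 level of 2.01 in GA and 2.19 in control, a ratio of -0.13 (-0.51 to 0.24), and moved Runx2 to -0.62 (-0.65 to -0.58).

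**Figure D2:**
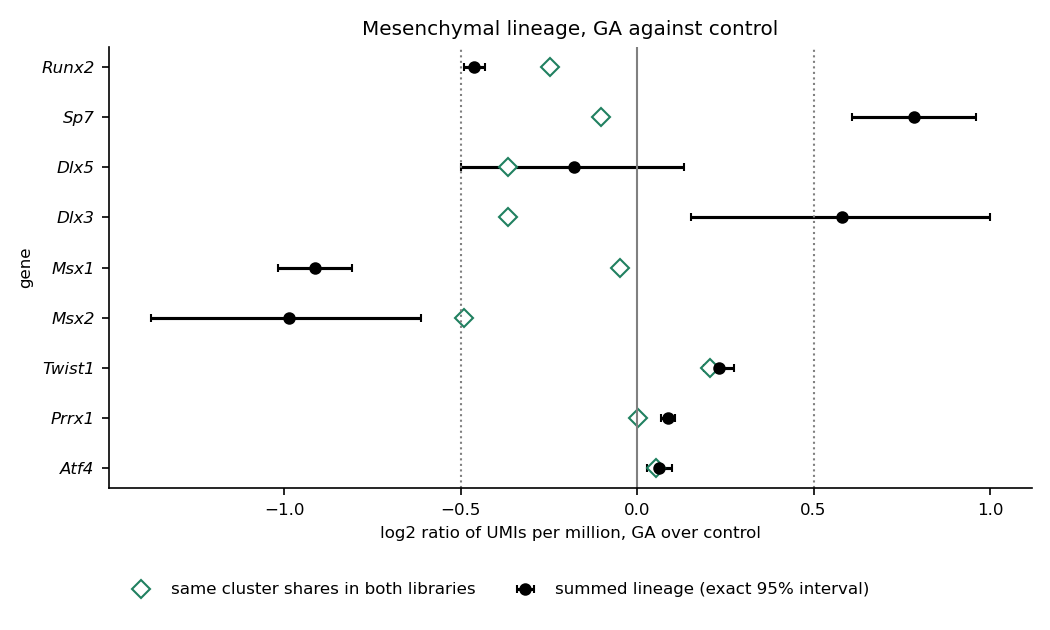
Log2 ratio of the level of each factor, GA over control, in the mesenchymal lineage. Filled points with exact 95% intervals are ratios of summed UMIs, open diamonds are ratios with both libraries weighted to the same cluster shares, and dotted lines mark 0.5 and -0.5. Sp7 moves from 0.79 to -0.10 and Msx1 from -0.91 to -0.05 between the 2 ways of summing.

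Inside the osteoblast-like group, 5 factors had enough UMIs and 0 were beyond the fold, beside 11.3% of all genes there. Runx2 had a ratio of -0.07 (-0.16 to 0.02) and Sp7 -0.22 (-0.43 to -0.02). Twist1 had -0.24 (-0.38 to -0.10), while Atf4 had 0.26 (0.10 to 0.43) and Prrx1 0.24 (0.05 to 0.43). The core osteoblast factors Runx2 and Sp7 were thus not higher in GA inside this group of 76 GA and 59 control cells. The Twist1 ratio ran from -0.27 to 0.11 over 16 alternatives of processing. That of Atf4 ran from 0.005 to 0.33 and that of Prrx1 from 0.11 to 0.30. The 5 cells richest in Twist1 held 175 of its 880 UMIs in GA and 258 of 837 in control. At 10000 UMIs per cell, Twist1 was found in 81.9% of GA and 71.9% of control cells, a direction opposite to its ratio. The intervals of these shares overlapped. Dlx5, with 59 and 74 UMIs, had -0.64 (-1.16 to -0.13), and Dlx3 had -0.20 (-0.68 to 0.29), both under the UMI minimum. The neutrophil marker sum in these cells was 3300 CPM in GA and 878 in control. The 16 alternatives included removal of free RNA, RNA from outside the cell, estimated from S100a8 and S100a9 as 3.67% of UMIs in GA and 3.77% in control. They also included leaving out cells with these genes above 1000 CPM. Beyond these, the part of neutrophil genes in the ratios was not tested.

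In the Stem 2-like group, 1 of the 4 factors with enough UMIs was beyond the fold, beside 13.4% of all genes. This was Twist1, at 155 CPM in GA and 97.6 in control, a ratio of 0.67 (0.58 to 0.76). Cells with a Twist1 UMI, after each cell was thinned to 10000 UMIs, were 71.4% in GA and 58.5% in control. Runx2 stood at 72.8 against 103, a ratio of -0.49 (-0.61 to -0.38), while 41.0% and 42.8% of the thinned cells had a Runx2 UMI. Over 16 alternatives of processing, the Twist1 ratio ran from 0.32 to 0.68 and was beyond the fold in 10. That of Runx2 ran from -0.64 to 0.42, the latter without Harmony. It was -0.08 in cluster 0, while in cluster 4 Runx2 stood at 110 CPM in GA and 151 in control. Cluster 0, the lower in Runx2, was 161 of the 235 GA and 228 of the 402 control cells of the group. The part of these shares in the group ratio was not tested. Msx1 was low in Stem 2-like cells, on 90 and 68 UMIs and so under the minimum. It was yet higher in GA at 7.81 against 3.21, a ratio of 1.28 (0.81 to 1.76). That direction was opposite to its lineage sum.

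In the multilineage progenitor-like group, 1 of 7 factors was beyond the fold, beside 7.96% of all genes. Msx2 stood at 3.17 CPM in GA and 9.01 in control, on 24 and 182 UMIs, a ratio of -1.51 (-2.19 to -0.89). Most of it lay in cluster 1, where Msx2 had 14 and 152 UMIs and a ratio of -1.73 (-2.63 to -0.94). Msx1, its paralogue, had -0.08 (-0.26 to 0.09) in the multilineage progenitor-like cells, and the counting intervals of both ratios did not overlap. At 10000 UMIs per cell, 3.01% (0.985 to 6.89) of GA and 8.04% (5.63 to 11.1) of control cells had a Msx2 UMI, with overlapping intervals. For Msx1 these shares were 25.9% (19.4 to 33.3) and 34.3% (29.8 to 39.0), which also overlapped. Over 16 alternatives the Msx2 ratio ran from -2.33 to -0.61, and it was beyond the fold with enough UMIs in 9. Runx2 had -0.28 (-0.33 to -0.22), Prrx1 -0.31 (-0.37 to -0.26) and Atf4 0.21 (0.12 to 0.29).

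Of 5 factors with enough UMIs in the fibroblastic progenitor-like group, 0 were beyond the fold, beside 14.7% of all genes. Msx1 had a ratio of -0.25 (-0.55 to 0.05) and Runx2 0.02 (-0.13 to 0.16), and both intervals held 0. These values rest on 27 GA and 284 control cells. In the Stem 1-like group, 1 of 5 was beyond the fold, beside 7.14% of all genes. It was Runx2, at 235 CPM in GA and 343 in control, a ratio of -0.54 (-0.65 to -0.44). Over 16 alternatives it ran from -0.79 to -0.05, and it was within the fold at Leiden resolution 2 and with cells thinned to 10000 UMIs. With that thinning, 78.4% of GA and 79.0% of control cells of the group had a Runx2 UMI. Prrx1 had 0.30 (0.24 to 0.37) in these dividing cells.

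In the 5 unnamed clusters summed, 2 of 5 factors were beyond the fold, beside 11.1% of all genes. Runx2 stood at 188 against 301, a ratio of -0.68 (-0.73 to -0.62), and Msx1 at 13.3 against 24.4, a ratio of -0.87 (-1.08 to -0.67). Cluster 9, the cluster highest in Msx1, was 19 of these 310 GA cells and 77 of these 454 control cells. Its Msx1 level was higher in GA. Clusters 6 and 9, the unnamed clusters with enough Msx1 UMIs, were each within the fold for Msx1. Here the neutrophil marker sum was 3457 in GA and 424 in control. The part of the cluster shares and of the neutrophil genes in these ratios was not tested.

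Cluster by cluster, the lower Runx2 of the GA library was uneven. Of 12 clusters with enough Runx2 UMIs, 3 were beyond the fold downwards and 1 upwards, where 13.1% of all gene and cluster pairs with enough UMIs were beyond it. The lowest ratio was -1.03 (-1.12 to -0.94) in cluster 6, at 257 CPM in GA and 524.5 in control, followed by -0.67 in cluster 5 and -0.54 in cluster 7. Cluster 10, with 191 and 112 Runx2 UMIs, had 0.62 (0.28 to 0.97). In the clusters with the 2 highest Runx2 levels, cluster 8 and cluster 1, the ratios were -0.07 and -0.01. Cluster 3, with 388 and 382, had 0.02. Twist1 was beyond the fold in 1 of 11 clusters, at 0.93 (0.78 to 1.09) in cluster 4, where it stood at 143 CPM in GA and 74.8 in control. Prrx1 was beyond it in 0 of 12 clusters and ranged from -0.38 in cluster 1 to 0.30 in cluster 7. Msx1 was within it in all 6 clusters with enough UMIs, from -0.39 to 0.42. For Sp7, cluster 8 alone had enough UMIs. For Atf4, 1 of 12 clusters was beyond the fold upwards and 1 downwards.

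**Figure D3:**
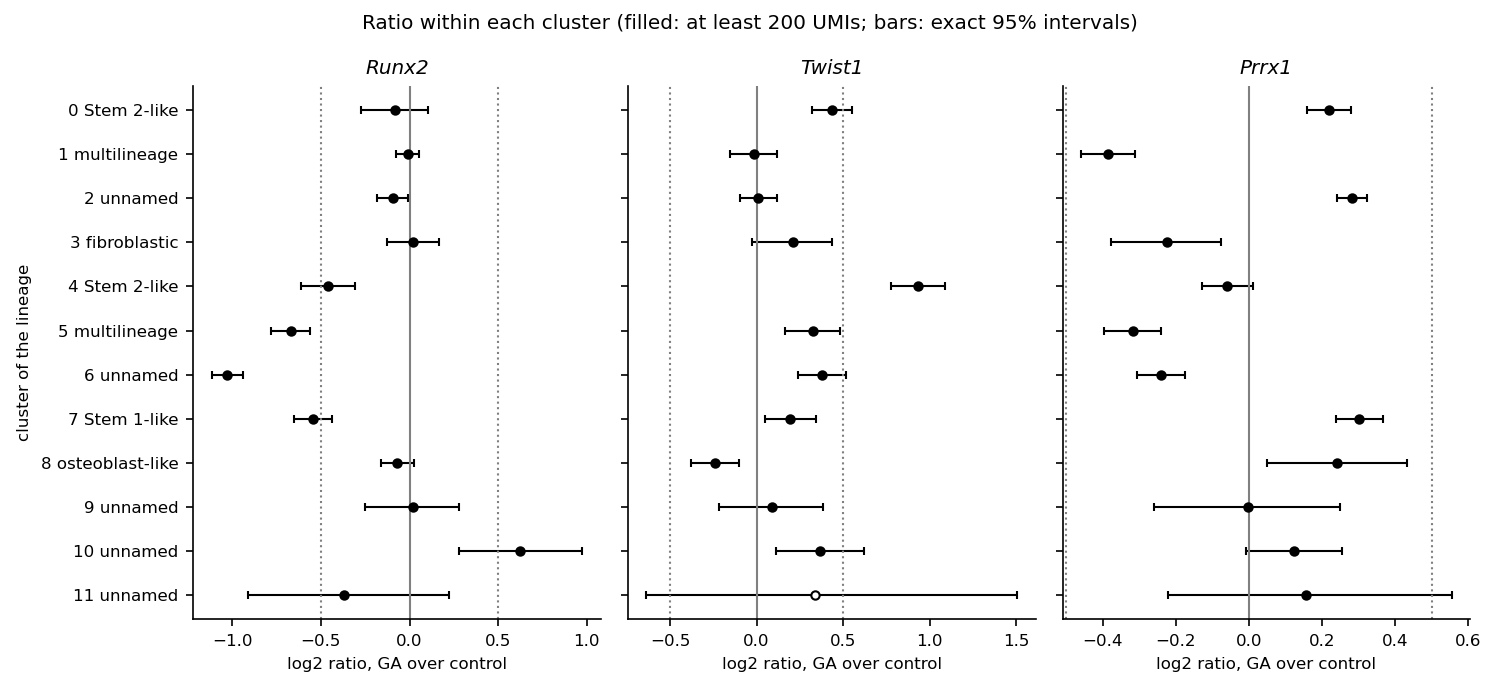
Log2 ratio of Runx2, Twist1 and Prrx1, GA over control, within each of the 12 clusters of the lineage, with exact 95% intervals, filled where the gene had at least 200 UMIs, and dotted lines at 0.5 and -0.5. Runx2 reaches -1.03 in cluster 6 and lies near 0 in clusters 1 and 8, and Twist1 reaches 0.93 in cluster 4.

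The factors were then followed over the bone gene content of single cells, which is a range of a score and not a cell type or a course in time. The content was the summed UMIs of Alpl, Ibsp, Bglap, Bglap2 and Ifitm5 per 10000 UMIs of a cell, for cells with at least 10000 UMIs. Cells were put in bins under 1, from 1 to under 10, from 10 to under 100, and at 100 or more, holding 713, 59, 17 and 68 GA cells and 1483, 154, 24 and 59 control cells. Within 1.2-fold of the 3 cuts lay 42, 12 and 8 cells. In the third bin, 12 of 17 GA and 21 of 24 control cells were multilineage progenitor-like. In the highest bin, 68 of 68 GA and 55 of 59 control cells were osteoblast-like, so the last step repeats the contrast of groups given above. Bglap and Bglap2 are near-identical copies whose counts cannot be fully told apart, and they enter here only as a sum.

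Runx2 was present at low bone gene content too. It stood at 187 CPM in GA and 301 in control in the lowest bin, 478 and 601 in the second, 906 and 695 in the third, and 677 and 686 in the highest. Sp7 was higher in each bin than in the one before, with 0.881 and 1.14 in the lowest bin, 8.23 and 8.49 in the second, 85.3 and 54.5 in the third, and 126 and 140 in the highest. Dlx5 stood at 28.9 (17.7 to 44.6) in GA and 38.9 (27.8 to 53.0) in control in the third bin and at 18.8 (14.2 to 24.4) and 28.3 (22.3 to 35.4) in the highest, with overlapping intervals.

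Of the 9 factors, Dlx3 had the largest relative rise in level from the third to the highest bin. It had 4, 2 and 2 UMIs in GA and 31, 12 and 2 UMIs in control in the lower 3 bins. In the highest bin it stood at 25.2 (19.8 to 31.5) and 25.7 (20 to 32.5) CPM, on 75 and 69 UMIs. In control its UMIs were thus not more confined to that bin than those of Sp7, with 375 there and 98, 56 and 56 below. Msx1 had its highest value in the second bin, at 87.7 (76.3 to 100.3) in GA and 93.1 (85.9 to 100.7) in control. In the third bin it stood at 60.7 (43.8 to 82.1) and 82.7 (66.1 to 102), and these intervals overlapped those of the second. It was lowest in the highest bin, at 6.71 and 10.8. Prrx1 was lower in each bin than in the one before, from 638 and 580 in the lowest to 178 and 164 in the highest. Twist1 went from 136 and 118 to 285 and 317. Atf4 showed no such order, with 213 and 205 in the lowest bin and 245 and 207 in the highest.

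**Figure D4:**
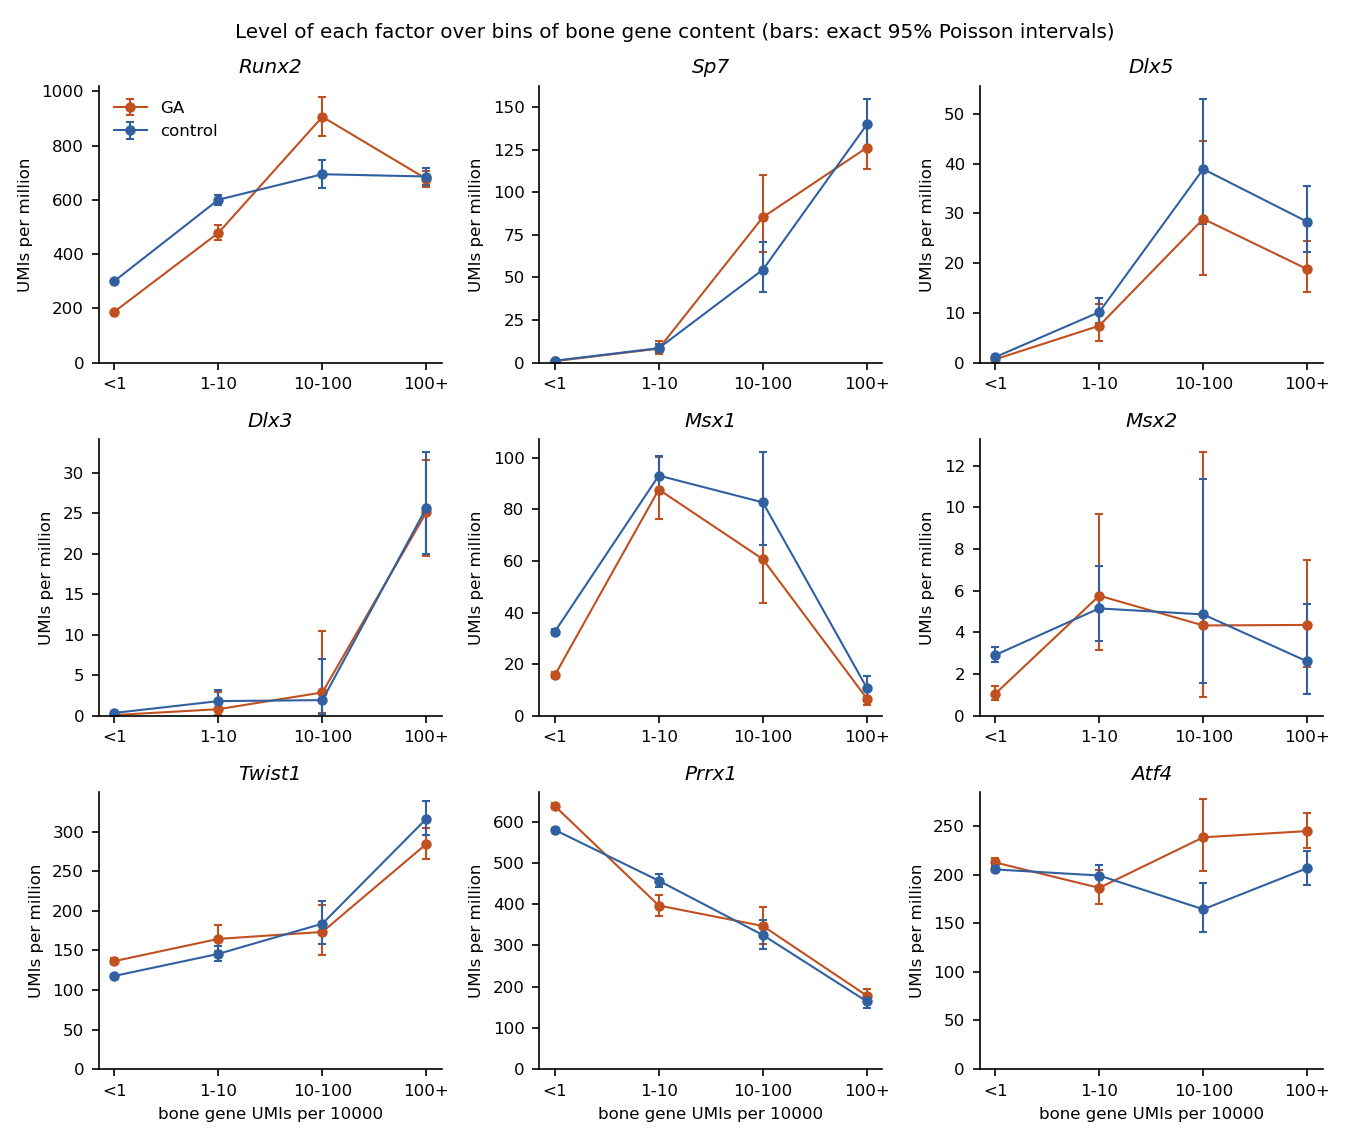
Level of each factor (CPM, axis from 0, scale set per gene) over 4 bins of bone gene UMIs per 10000, lines joining the bins of a library, bars exact 95% Poisson intervals. Runx2 is high from the second bin on, and Dlx3 stands above 20 in the highest bin alone at 25.2 and 25.7. Msx1 has its highest value in the second bin at 87.7 and 93.1, with intervals that overlap those of the third.

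With each cell thinned to 10000 UMIs, which left out 8 GA and 7 control cells of the lineage, Sp7 was detected in 55 GA and 83 control cells. Of these, 94.5% in GA (84.9 to 98.9) and 96.4% in control (89.8 to 99.2) also had a Runx2 UMI. Among cells without a Sp7 UMI, the share with Runx2 was 62.7% (59.3 to 66.1) and 68.8% (66.5 to 71.0). Of all osteoblast-like cells, 94.4% in GA and 98.2% in control had a Runx2 UMI. Dlx5 was found in 18.2% and 25.3% of cells with Sp7 and in 1.75% and 1.77% of cells without. Of all osteoblast-like cells, with or without Sp7, 18.1% in GA and 24.6% in control had a Dlx5 UMI.

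Outside the osteoblast-like group, Sp7 was detected in 9 GA and 39 control cells. Of these 39 control cells, 23 had a Msx1 UMI, 9 a Dlx5 UMI, 36 a Runx2 UMI, and 39 a Prrx1 UMI. Dlx3 was detected in 0 of the 9 GA and 0 of the 39 control cells, which allows shares of up to 33.6% and 9.03%. At this depth 20.8% of GA and 14.0% of control osteoblast-like cells had a Dlx3 UMI, so the 9 GA cells cannot show a lower share. In the GA library, 9 of the 9 cells had Runx2 and 4 had Msx1. In the osteoblast-like group, 5.56% of GA and 8.77% of control cells had a Msx1 UMI, and 70.8% and 70.2% a Prrx1 UMI. In neutrophil-like cells, which should lack Sp7, a Sp7 UMI was seen in 0.0457% of GA cells thinned to 2000 UMIs and in 0 control cells, which allows a share of up to 0.179%.

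A median of 4.5 of the 9 factors was detected in a thinned osteoblast-like cell of GA and 5 in control, against 3 in Stem 2-like cells of both libraries. Of the 2577 thinned lineage cells, 2 GA and 1 control cells had none of the 9, and all 3 lay in unnamed clusters.

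Beyond the mesenchymal lineage, Runx2 and Atf4 were present in several classes of blood cells. The highest Runx2 level of any class was in plasmacytoid dendritic-like cells, at 1427 CPM in GA and 1606 in control, above osteoblast-like cells. These cells, which make type I interferon, had a Runx2 UMI in 80.6% of GA (69.5 to 88.9) and 86.1% of control (75.9 to 93.1) cells thinned to 2000 UMIs. Neutrophil-like cells stood at 91.4 and 98.4, T or NK-like cells at 162 and 195, and stem or progenitor-like cells of blood at 135 and 135. B-like cells had 4.12 and 5.05, with a Runx2 UMI in 0.858% and 1.04% of thinned cells. In dendritic-like cells Runx2 stood at 55.8 in GA and 114 in control, on 179 and 701 UMIs.

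The pericyte-like class had mixed leading genes, the pericyte markers Rgs5 and Notch3 but also Cd5l, Fcna, Spic, Itgad and Ccr3, which are not on the pericyte list. Pericyte-like cells had Runx2 at 464 and 441 and Prrx1 at 267 and 388. They were shallow, with medians of 2199.5 and 3868.5 UMIs per cell, and also held Sp7 at 23.7 and 5.67. The part of RNA from other cells in these levels was not tested. Prrx1 and Twist1 were low in the blood cell classes. In neutrophil-like cells, which should lack both, a Prrx1 UMI was seen in 0.388% of GA and 0.825% of control cells thinned to 2000 UMIs, and a Twist1 UMI in 0.160% and 0.194%. Dlx3 and Dlx5 had 1 and 2 UMIs in 4407 GA neutrophil-like cells and 0 and 1 UMIs in 2086 control ones. Atf4 was present in every class, from 86.4 in control plasmacytoid dendritic-like cells to 277 in GA endothelial-like cells.

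**Figure D5:**
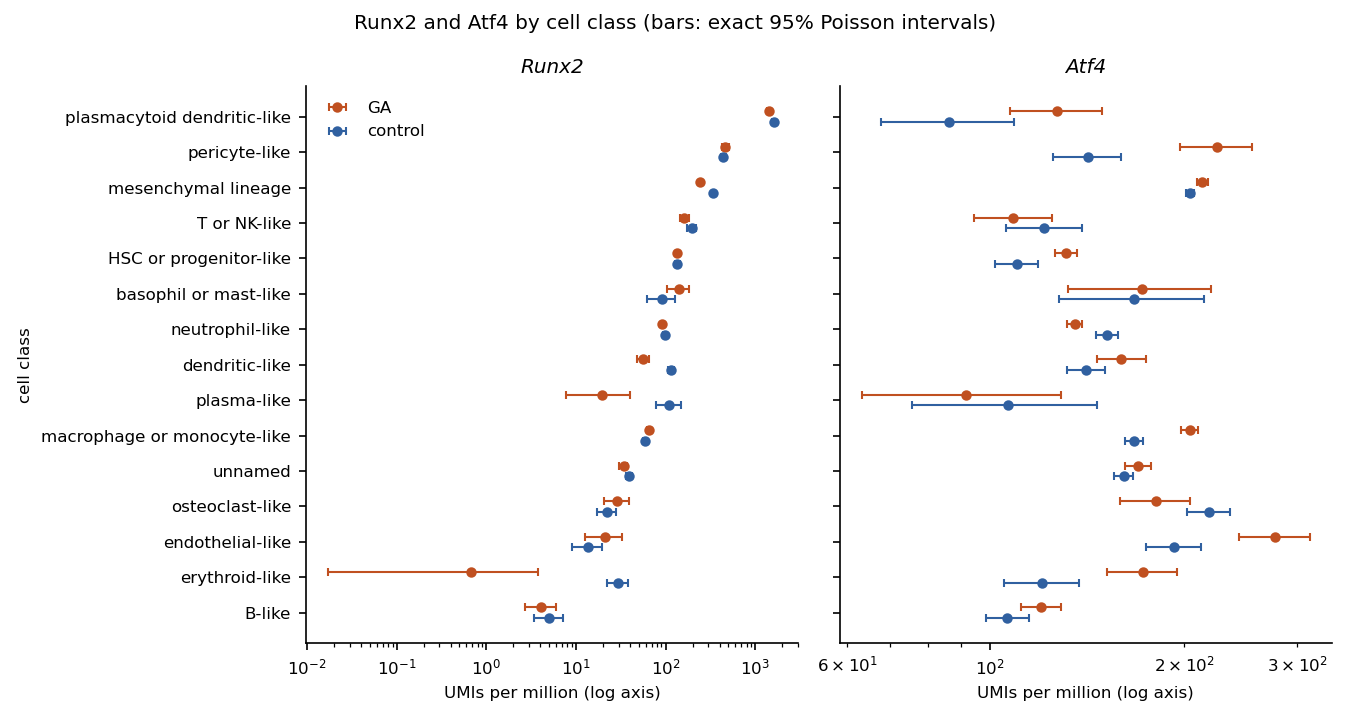
Level of Runx2 and Atf4 (CPM, log axis) in the mesenchymal lineage and in each named class of other cells, with exact 95% Poisson intervals, classes ordered by their mean Runx2 level. Runx2 is highest in plasmacytoid dendritic-like cells at 1427 and 1606 and lowest in B-like and GA erythroid-like cells, while Atf4 stays between 86.4 and 277 everywhere.

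Genes that work with these factors were read from lists of known partners, against the lineage share of 12.3% beyond the fold. Of 10 Runx family members and partners, 0 were higher and 1 was lower beyond the fold, with a median log2 ratio of -0.18. The lowest was Hey1, a Notch target that can repress Runx2, at 2.57 CPM in GA and 6.68 in control, a ratio of -1.37 (-1.67 to -1.09). Cbfb, the partner that Runx proteins need to bind DNA stably, had -0.23, and Runx1 had 0.03. Of 12 other homeobox factors of the skull, 5 had enough UMIs, and 0 were higher and 2 lower. These were Alx4, a factor of the skull vault, at -0.82 (-1.06 to -0.59) and Six2 at -0.68 (-0.83 to -0.53), and the highest was Prrx2, a close relative of Prrx1, at -0.01. Dlx6, the neighbour and paralogue of Dlx5, had 64 and 113 UMIs, under the minimum.

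A list of 13 genes read beside Twist1 held helix-loop-helix partners, antagonists and relatives, and also zinc finger factors. Of these 13, 11 had enough UMIs, 1 was higher and 1 lower. Id4 had 0.80 (0.57 to 1.02) and Id1, a target of BMP signalling that keeps helix-loop-helix factors from DNA, had -0.85 (-0.99 to -0.72). Tcf12, the partner of Twist1 in the sutures, had -0.06, and Twist2 had -0.16. Of 12 bone matrix genes downstream, 11 had enough UMIs, 5 were higher and 0 lower. Dmp1, a matrix gene of osteocytes, had the highest ratio at 2.22 (2.12 to 2.31), with Phex at 1.55, Bglap2 at 1.33, Bglap at 1.18 and Ifitm5 at 1.14, and Mmp13 and Alpl, both at -0.12, were the lowest. Inside the osteoblast-like group the median of the 10 such genes with enough UMIs was -0.07, with 1 higher, Dmp1 at 0.89, and 2 lower, Alpl at -0.60 and Spp1 at -0.58, and Phex had 0.44. Of 5 erythroid markers with enough UMIs, 4 were also higher beyond the fold in the GA lineage. Of 4 arachnoid and dura markers with enough UMIs, 2 were lower, Ptgds at -4.38 and Gjb2 at -1.49, while Slc47a1 had 0.09 and Crabp2 -0.04. The part of these cell types in the ratios was not tested.

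For Atf4, all 20 of its stress response targets had enough UMIs, 2 were higher and 0 lower, with a median of -0.04. These were Atf3, an immediate early factor, at 319 CPM in GA and 210 in control, a ratio of 0.60 (0.57 to 0.64), and Vldlr at 0.52 (0.41 to 0.62). Asns, which makes asparagine, had -0.13, Ddit3 0.14, Trib3 -0.06 and Chac1 0.03, and the lowest was Phgdh, of serine synthesis, at -0.47. Of 7 eIF2α kinases, subunits and phosphatase genes, 1 was higher, the interferon-induced kinase Eif2ak2, at 0.72 (0.64 to 0.79), and the lowest was Eif2ak4 at -0.31. Atf4 is controlled mainly by translation, so its UMIs do not measure its activity.

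The genes most like each factor over the 12 clusters were named by Pearson r of log2 levels among those with at least 500 lineage UMIs. For Runx2 they were Spata13 (0.97), Nrp2 (0.96) and Myo10 (0.95). For Sp7 they were Lgr6, Fat3 and Insc (0.93 each), and for Dlx5 Fat3 (0.97), Insc and Dapk2 (0.95 each). Ptprz1, Col22a1 and Bglap (0.98 each) were most like Dlx3, and Eya2 (0.97), Arap2 and Ifitm10 (0.95 each) most like Msx1. Msx2 was nearest to Smpdl3b (0.92), Ccnd1 (0.90) and Sncaip (0.88), and Twist1 to Bambi (0.91), Sdf4 (0.88) and Cacna2d3 (0.87). Prrx1 went with Tafa2 (0.98), Tent2 and Wnt11 (0.95 each). Atf4 had the weakest likeness, with Adarb1 (0.85), Gm14963 (0.84) and Slc39a14 (0.79). About 10977 genes were compared for each factor over the same 12 points, so high r values arise easily and carry no p.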

How the data were processed

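Cells of 1 GA and 1 control calvarial defect library were profiled with a 10x Genomics 3′ assay. The authors aligned and counted reads with Cell Ranger on mm10 (the deposited file headers name version 7.0.1), and the deposited values are raw UMI counts per gene and cell. Whether intronic reads were counted is not given in the sources used here. The labels and the study's methods differ on the dose and length of treatment, and the labels are followed. Cells with 500 to 140000 UMIs, 200 to 9500 genes and at most 15% mitochondrial UMIs were kept, 9036 of 9322 GA barcodes (182949385 UMIs) and 8093 of 8718 control barcodes (214993030 UMIs). Scrublet in scanpy 1.11.5 called 0 GA and 39 control (0.447%) doublets by its own threshold, which was taken as not having worked. Instead, the barcodes with the highest scores were called, a share of 0.8% for each 1000 barcodes of the library. Of those called, the 656 GA and 540 control barcodes within the limits above were removed. Variable genes (2000, without the 9 factors), Pearson residuals, 50 components, Harmony, 15 neighbours and leidenalg 0.10.2 at resolution 1 gave 33 clusters of all cells, of which 3 stayed unnamed. Names needed at least 3 markers at 2-fold in 10% of cells, and no list of another cell type with more markers among the top 10 genes. Those thresholds and that condition were set after seeing the data, and group markers follow the study's own marker genes, chosen on these samples. The 9 factors were not among the markers used here. Ratios compare summed UMIs over set totals, and the ratio code was tested on simulated data. Named genes are the 9 factors, of each list the highest and lowest ratio and any beyond 0.5, and the 3 most alike genes, with a few list members added after their values were seen, and 1 list member is not reported here. Members and lists were chosen with earlier results of these data known. A share of 0 allows the upper limit given by its exact interval.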

Additional observations from a re-analysis of the deposited data

Results flagged for a closer look

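Among factors with at least 200 UMIs in a cluster, 2 had log2 ratios beyond 0.5 in opposite directions in different clusters of the mesenchymal lineage. Runx2, GA over control, was -1.03 in cluster 6, -0.67 in cluster 5 and -0.54 in cluster 7, and 0.62 in cluster 10. Atf4 was -1.15 (-1.59 to -0.74) in cluster 9, on 52 and 561 UMIs, and 0.51 in cluster 11, the cluster led by neutrophil genes, with an interval from -0.18 to 1.29 that held 0. With 1 library per group the difference between the clusters was not tested.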

How the results depend on the processing

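The count of factors beyond the fold in the lineage was 3, and came to 0 with both libraries weighted to the same cluster shares and also with a limit of 1 on the log2 scale. It was 2 to 4 under the remaining alternatives. With the same cluster shares, Sp7 turned to -0.10, and Runx2 came to -0.25, Msx1 to -0.049, Msx2 to -0.49, Dlx3 to -0.36 and Prrx1 to 0.0020. Without the osteoblast-like group, an alternative chosen after seeing the data, Sp7 turned to -0.13, and Runx2 came to -0.62, Dlx5 to -0.64, Dlx3 to -1.74 and Prrx1 to 0.13. With each cell thinned to 10000 UMIs, Runx2 was -0.41, Sp7 0.58, Msx1 -1.06, Msx2 -0.45 and Prrx1 0.11. At Leiden resolution 2, Runx2 was -0.20 and Sp7 1.01. With no doublets removed, Msx1 was -0.73, as a mean of per-cell levels Runx2 was -0.42, and without the 5 highest cells of each library, also chosen after seeing the data, Msx1 was -1.02. Apart from the changes in cell makeup by construction, the cause was not tested. Leaving out the cluster led by neutrophil genes, or the 37 GA and 10 control lineage cells with S100a8 and S100a9 above 1000 CPM, both chosen after seeing the data, left the count at 3. A lower limit on S100a8 and S100a9 was tried first and replaced because it left almost no GA lineage cells. Dlx3, Dlx5 and Msx2 rest on 197 to 402 lineage UMIs, which limits their ratios. No paired analysis was possible because each group has 1 library.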
